A study of Equus caballus with 6 samples.

Results

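The enzymes that write, read out and erase DNA methylation and histone marks, and the motors that move nucleosomes, were examined in the inner cell mass (ICM, the inner cells that give rise to the embryo and yolk sac) and the trophectoderm (TE, the outer layer, a source of the placenta) of the horse blastocyst. Members were taken by gene symbol. They were the DNMT, TET, KDM, HDAC, SIRT, SMARCA to SMARCE, CHD, EHMT, SETD, KAT and PRMT families with UHRF1, TDG, EZH1, EZH2, EED, SUZ12, JARID2, HAT1, EP300, CREBBP and TRIM28, in all 91 of the 12270 genes in the table. The libraries were 3 of ICM (numbered 15, 22 and 25) and 3 of TE (16, 23 and 24) from blastocysts of day 8, conceived in mares that had been made to release several oocytes, with no genetic change or drug given to the embryos. TE was cut off by hand after Pronase, a protease mix, and ICM was cleaned by immunosurgery, the lysis of outer cells with antibody and complement. Tissue and isolation method therefore cannot be told apart. The labels name neither the mares nor which ICM and TE came from 1 blastocyst, so the p-values reflect only how far these libraries spread, which may be technical.

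DNA methylation is laid down anew by DNMT3A and DNMT3B, copied at replication by DNMT1 with its recruiter UHRF1, and removed through oxidation by the TET enzymes followed by base excision by TDG. Around the blastocyst stage the mammalian embryo passes from a low level of DNA methylation to a new wave of it, and the inner and outer lineages of several species end with different methylation levels. Histone marks work beside it. Polycomb repressive complex 2 (PRC2) methylates lysine 27 of histone H3 at silenced developmental genes, acetyltransferases and deacetylases open and close chromatin, and SWI/SNF, ISWI and CHD motors shift nucleosomes.

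The genes of the table held 6526212 to 10686659 reads in each library. The summed level of 5 epiblast markers, in reads per kilobase scaled for depth (RPKM), was 122 in ICM 15, 128 in ICM 22 and 47.7 in ICM 25, against 35.6 to 55.9 in TE. SOX2, a pluripotency factor, was listed at 0 in all TE libraries. For 4 hypoblast markers the sums were 62.0, 62.5 and 20.8 in ICM 15, 22 and 25 and 14.5 to 22.7 in TE, and for 6 trophectoderm markers 13.6, 33.7 and 25.2 against 108 to 140. ICM 25 thus had the lowest sums of both inner lineages among the ICM libraries, with a trophectoderm sum between theirs. POU5F1 made up most of the epiblast sum, and the single markers differed. NANOG (1.75 RPKM in ICM 25), SOX2, KLF4, GDF3, PDGFRA and BMP2 were higher in ICM 25 than in every TE library, while POU5F1, GATA4 and GATA6 were not. BMP2, at 6.12 RPKM, was highest in ICM 25, and KLF4 (8.09) and GDF3 (1.44) lay between ICM 15 and ICM 22 there. Of markers for other cells, CD74 of blood was at 0.0853 to 2.44 RPKM, MUC1 and PGR of the uterus summed to 1.52 to 5.17, and CYP19A1, a cumulus gene that the placenta also uses, was at 4.36 to 26.1. Their part in the results below was not tested.

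No chromatin enzyme passed the test between the tissues with all libraries included. Of the 91 members, 82 had at least 1 RPKM in at least 3 libraries and were tested on log2(RPKM + 1), a scale that understates the change of low genes. By limma, 0 of 82 passed in either direction at an adjusted p of 0.05 over all 9436 genes tested, of which 1.87% were called, 0.933% in each direction. By voom on the recovered reads and after median of ratios rescaling the members' count was also 0, where 1.2% and 1.34% of all genes were called higher in ICM. An unadjusted p under 0.05 was seen for 7 members, 8.54% of those tested, where 16.9% of all genes had one. The log2 differences, ICM minus TE, ran from -0.82 to 1.03, with a median of -0.04 for the members and -0.15 for all genes tested. This general shift became -0.03 after rescaling the libraries by the median of ratios, which put the members' median at 0.05 and turned 35 positive and 47 negative differences into 44 and 38. The 95% interval of the difference lay within 1 log2 unit of 0 for 49 of 82 members (59.8%) and for 48.4% of all genes. This unit is 2-fold in RPKM + 1, which allows a larger change in RPKM for members near 1 RPKM. In whole tissue, fewer cells of a kind and less RNA per cell cannot be told apart.

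**Figure D1:**
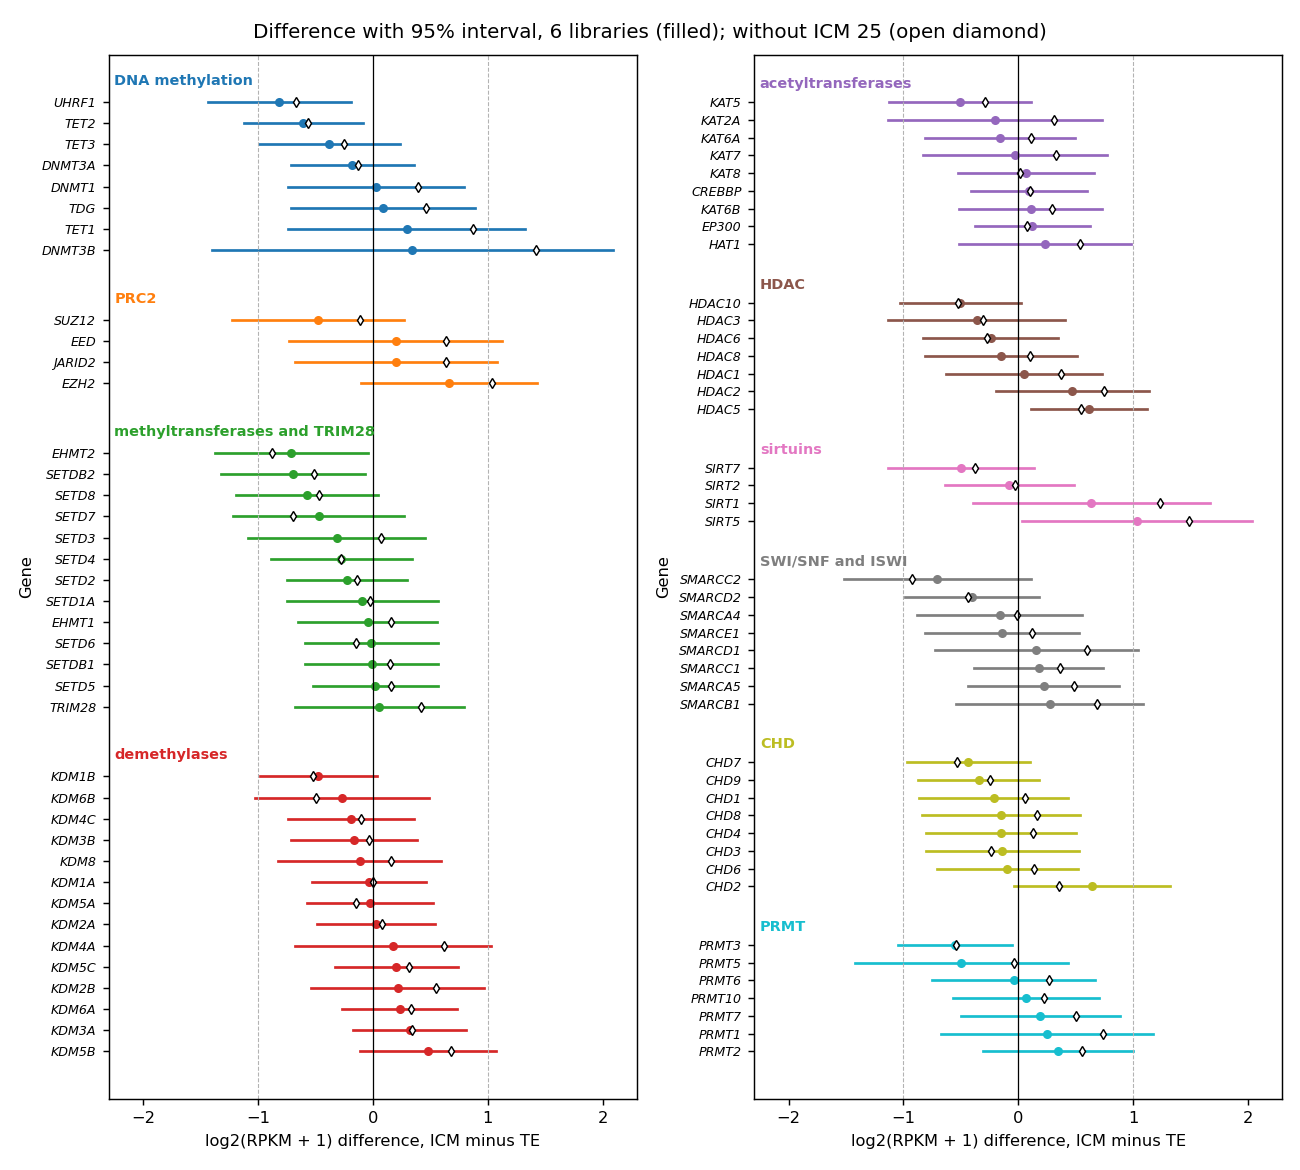
Difference between ICM and TE of the 82 members tested, on the log2(RPKM + 1) scale, grouped by role. Filled points with bars are the differences over 6 libraries with their 95% intervals, open diamonds are the differences without ICM 25, and dashed lines mark 1 log2 unit. The filled points lie between -0.82 and 1.03, and the bar of DNMT3B, from -1.40 to 2.09, spans the most.

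Among the enzymes of DNA methylation, DNMT3B, which methylates DNA anew, was the most abundant of all 91 members and ranked 322 among the 12270 genes by mean level. It was at 188 and 180 RPKM in ICM 15 and 22 but at 18.6 in ICM 25, and at 75.5, 47.7 and 87.2 RPKM in TE 16, 23 and 24. The TE libraries therefore lay between the ICM libraries, which spread over 10.1-fold. The means were 129 ± 95.6 RPKM in ICM and 70.2 ± 20.3 in TE (SD, n = 3 each), with a log2 difference of 0.34 (SE 0.77, limma adjusted p = 0.87). Without ICM 25 it was 1.42 (SE 0.26, limma adjusted p = 0.015), but without ICM 15 or ICM 22 it turned to -0.21 or -0.18.

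DNMT3A, the other enzyme of new methylation, was even across the libraries, at 16.3, 13.0 and 13.0 RPKM in ICM 15, 22 and 25 and 15.4, 14.1 and 18.9 in TE 16, 23 and 24. Its log2 difference of -0.18 had a 95% interval of -0.72 to 0.36. DNMT1, which maintains methylation after replication, stood at 11.4, 12.4 and 5.02 RPKM in ICM and 7.90, 8.12 and 10.7 in TE (difference of 0.03 log2 units, interval -0.74 to 0.79). Here too ICM 25 was the lowest of the 6 libraries.

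UHRF1, which brings DNMT1 to newly copied DNA, had the smallest p of all members. It was low throughout, at 1.07, 2.12 and 0.887 RPKM in ICM and 3.39, 2.44 and 3.41 in TE. All ICM libraries lay below all TE libraries, with a log2 difference of -0.82 (SE 0.27, limma adjusted p = 0.18). The difference was -0.67 without ICM 25.

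The 3 TET enzymes, which oxidise methylcytosine, had unlike profiles. TET1, the most abundant, was at 50.9, 35.3 and 12.01 RPKM in ICM 15, 22 and 25 and 22.1, 21.0 and 25.2 in TE (difference of 0.29 log2 units, SE 0.46, limma adjusted p = 0.80). Like DNMT3B, it was higher in ICM 15 and 22 than in any TE library and lowest in ICM 25. Without ICM 25 its difference was 0.87 (SE 0.21, limma adjusted p = 0.034), and without ICM 15 it was -0.13. TET2 went the other way, with 7.28, 5.81 and 5.86 RPKM in ICM and 9.12, 10.5 and 10.7 in TE, groups that did not overlap (difference of -0.61 log2 units, SE 0.23, limma adjusted p = 0.22). The deposited TET2 row covers a single block of 1875 bases, on chromosome 2 from 119578733 to 119580607 in a build that the sources used here do not name. TET2 is a gene of several exons, so this value may stand for only a stretch of it. TET3 was the lowest, at 1.07 ± 0.62 RPKM in ICM against 1.63 ± 0.28 in TE. The glycosylase TDG was at 4.79 ± 2.69 against 4.04 ± 0.32 RPKM.

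**Figure D2:**
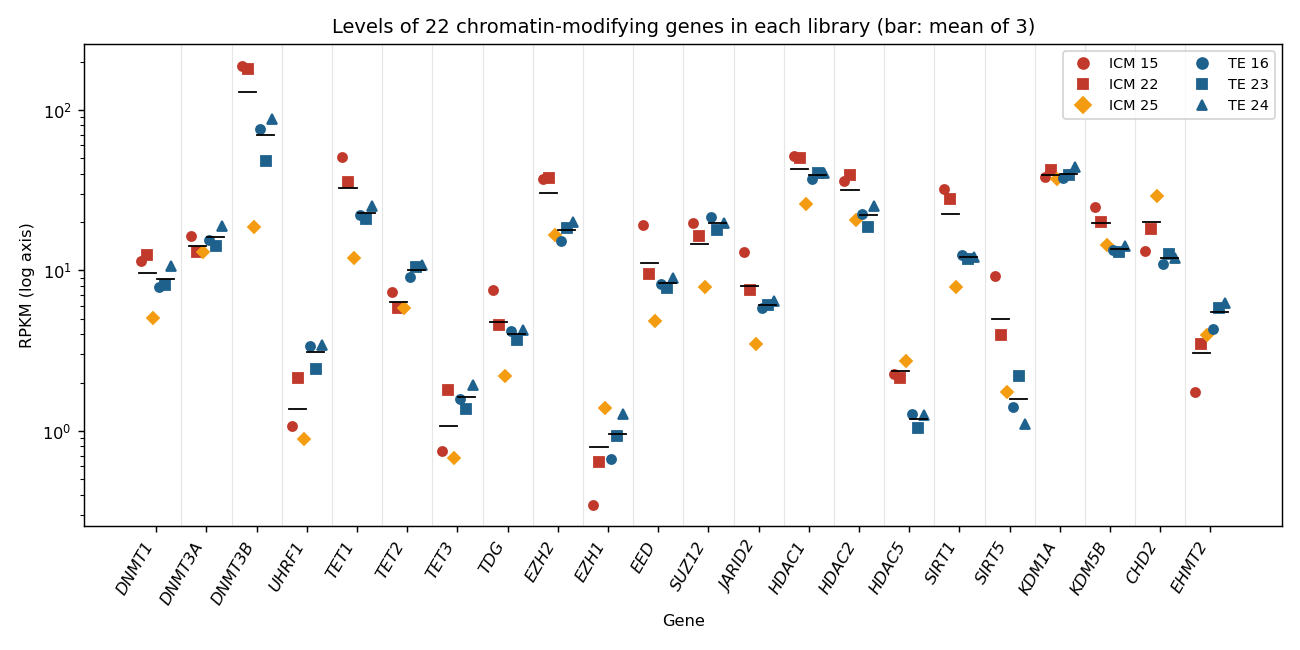
RPKM (log axis) of 22 members, picked for display with their values known, in each of the 6 libraries. Each point is a library and each bar the mean of 3 libraries of a tissue. For DNMT3B the points run from 18.6 in ICM 25 to 188 in ICM 15, while KDM1A stays between 37.1 and 43.9 in all libraries.

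EZH2, a catalytic subunit of PRC2, was far more abundant than its relative EZH1. EZH2 stood at 37.1 and 37.9 RPKM in ICM 15 and 22, 16.6 in ICM 25, and 15.2, 18.3 and 20.1 in TE. ICM 25 lay within the TE range on the deposited scale, but above it after median of ratios rescaling. The log2 difference of EZH2 was 0.66 (SE 0.34, limma adjusted p = 0.37) and, without ICM 25, 1.04 (SE 0.18, limma adjusted p = 0.013). EZH1 was below the filter, with 22, 49 and 86 reads in ICM and 45, 46 and 83 in TE (0.79 ± 0.53 and 0.96 ± 0.30 RPKM).

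The partners of EZH2 did not pass either. SUZ12, the scaffold subunit, was at 19.7, 16.4 and 7.89 RPKM in ICM and 21.4, 17.7 and 19.7 in TE, with a log2 difference of -0.48 (limma adjusted p = 0.52). EED, which binds the methylated histone, spread from 4.80 RPKM in ICM 25 to 19.0 in ICM 15, with 7.81 to 8.93 in TE. JARID2, which helps PRC2 reach its targets, ran from 3.47 in ICM 25 to 13.1 in ICM 15, around 5.80 to 6.44 in TE. For both, leaving out ICM 15 turned the sign of the difference, from 0.20 to -0.26 for EED and from 0.20 to -0.20 for JARID2. These PRC2 members as a group of 4 tested had a median difference of 0.20, or 0.64 without ICM 25.

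Of the SETD and EHMT families, counted with TRIM28, 11 of 13 tested had a negative log2 difference, as had 6104 of all 9436 genes, and the group's median was -0.22. EHMT2 (G9a), which methylates lysine 9 of histone H3, was at 1.74, 3.46 and 3.93 RPKM in ICM and 4.31, 5.80 and 6.27 in TE (difference of -0.71 log2 units, SE 0.30, limma adjusted p = 0.27). All ICM libraries lay below all TE libraries on the deposited scale, but not after median of ratios rescaling. EHMT1, the partner of EHMT2, showed no gap, at 5.38 ± 1.56 and 5.46 ± 0.64 RPKM. SETDB2, another methyltransferase of the lysine 9 class, was at 1.07, 1.93 and 0.697 RPKM in ICM and 2.85, 1.99 and 2.81 in TE (difference of -0.70 log2 units, SE 0.28, limma adjusted p = 0.25). SETD8, which places a single methyl group on lysine 20 of histone H4, stood at 9.78 ± 3.31 against 14.6 ± 1.49 RPKM. None of these 3 passed.

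TRIM28, the co-repressor that brings lysine 9 methylation to retroelements and imprinted loci, was the most abundant of the group and ranked 512 among all genes. It was at 78.6, 74.0 and 35.7 RPKM in ICM and 54.0, 53.8 and 63.5 in TE. The means of 62.8 ± 23.6 and 57.1 ± 5.56 gave a log2 difference of 0.06 (95% interval -0.68 to 0.79).

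The histone demethylases had the lowest median SD in ICM of the 10 role groups, 18.1% of the mean, with 9.02% in TE over 14 members tested, against 36.6% and 16.1% over all genes. KDM1A (LSD1), which removes methyl groups from lysine 4 and anchors a co-repressor complex, was at 37.9, 42.5 and 37.1 RPKM in ICM and 37.4, 39.04 and 43.9 in TE. Its log2 difference of -0.03 had an interval of -0.53 to 0.46 and took the other sign in 6 of 13 alternative analyses. Its relative KDM1B was low, at 1.27, 1.75 and 1.74 RPKM in ICM and 2.60, 2.57 and 2.56 in TE, without overlap (difference of -0.47 log2 units, limma adjusted p = 0.33).

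KDM5B, which removes the lysine 4 mark of active promoters, was at 24.96, 19.97 and 14.29 RPKM in ICM and 13.38, 12.98 and 14.27 in TE. On the deposited scale ICM 25 and TE 24 were almost level, so the groups only just did not overlap (difference of 0.48 log2 units, SE 0.26, limma adjusted p = 0.40). Without ICM 25 the difference was 0.68 (SE 0.18, limma adjusted p = 0.047). KDM3A, a demethylase of lysine 9, was at 17.9, 17.3 and 16.9 RPKM in ICM and 13.3, 14.9 and 12.9 in TE. The ICM libraries were close together on the deposited scale and lay above TE, with a small log2 difference of 0.32 (limma adjusted p = 0.51).

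No acetyltransferase passed the test. EP300, a coactivator at enhancers, was the most abundant, at 33.5, 34.8 and 37.6 RPKM in ICM and 28.3, 33.8 and 35.2 in TE (difference of 0.12 log2 units, interval -0.38 to 0.63). KAT5 (TIP60), which acetylates histones H4 and H2A, stood at 3.70, 3.24 and 1.86 RPKM in ICM, below 3.92, 4.28 and 5.28 in TE (difference of -0.51 log2 units, limma adjusted p = 0.39). HAT1, which acetylates new histones before their assembly, was at 11.2 ± 4.19 against 9.15 ± 2.59 RPKM, with overlap.

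Among the zinc-dependent deacetylases, HDAC1 and HDAC2, the catalytic pair of the main nuclear co-repressor complexes, were the abundant ones. HDAC1 was at 51.8, 50.4 and 25.8 RPKM in ICM and 37.3, 40.4 and 40.5 in TE (difference of 0.05 log2 units, interval -0.63 to 0.73). HDAC2 stood at 35.8, 39.1 and 20.6 RPKM in ICM and 22.4, 18.5 and 25.2 in TE. Its difference was 0.47 log2 units (limma adjusted p = 0.46), and 0.75 without ICM 25 (limma adjusted p = 0.041). Again ICM 25 lay inside the TE range on the deposited scale, but above it after median of ratios rescaling. HDAC5, a class II enzyme that shuttles between nucleus and cytoplasm, had low values with no overlap, 2.25, 2.12 and 2.71 RPKM in ICM and 1.28, 1.04 and 1.25 in TE, from 216, 248 and 256 reads and 131, 78 and 124 reads. Its log2 difference was 0.62 (SE 0.22, limma adjusted p = 0.21) and remained positive in each of 12 alternatives. HDAC10, a polyamine deacetylase, lay on the other side, at 2.87 ± 0.21 against 4.51 ± 0.78 RPKM (limma adjusted p = 0.32).

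Of the NAD-dependent sirtuins, SIRT1, a nuclear deacetylase of histones and transcription factors, was at 32.1 and 27.8 RPKM in ICM 15 and 22, 7.89 in ICM 25, and 12.6, 11.7 and 12.2 in TE. The TE libraries were tight and ICM lay on both sides of them (difference of 0.63 log2 units, SE 0.46, limma adjusted p = 0.53). Without ICM 25 the difference was 1.23 (SE 0.17, limma adjusted p = 0.0063), the smallest p of any member in that comparison. SIRT5, a mitochondrial desuccinylase, had the largest difference of all members, with 9.18, 3.95 and 1.75 RPKM in ICM and 1.41, 2.20 and 1.11 in TE (difference of 1.03 log2 units, SE 0.44, limma adjusted p = 0.28). ICM 25 fell below TE 23 on the deposited scale, but lay above every TE library after median of ratios rescaling. These values of SIRT5 rest on 208, 109 and 39 reads in ICM and 34, 39 and 26 in TE. SIRT7, which acts at ribosomal genes, was at 2.45 ± 0.49 against 3.96 ± 1.26 RPKM.

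In the SWI/SNF and ISWI group, SMARCA5, the ISWI motor, was the most abundant, at 46.9, 42.7 and 25.5 RPKM in ICM and 37.9, 26.6 and 31.7 in TE. SMARCC2 and SMARCD2, subunits of SWI/SNF, were lower on average in ICM. SMARCC2 stood at 2.36, 6.74 and 7.12 RPKM in ICM and 7.40, 8.94 and 9.99 in TE (difference of -0.71 log2 units, SE 0.36, limma adjusted p = 0.37). The groups did not overlap on the deposited scale but did after median of ratios rescaling, and here ICM 15 was the lowest library. SMARCD2 was at 2.77 ± 0.72 against 3.96 ± 0.70 RPKM. SMARCB1, a core subunit, ran from 1.51 RPKM in ICM 25 to 5.73 in ICM 15, around 2.43 to 2.87 in TE.

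CHD2, a remodeller of the chromodomain family, was the clearest exception to the low values of ICM 25. It was at 13.1 and 18.03 RPKM in ICM 15 and 22 and at 28.9 in ICM 25, above 10.99, 12.6 and 12.02 in TE. The groups did not overlap (difference of 0.64 log2 units, SE 0.30, limma adjusted p = 0.33), and the difference was 0.35 without ICM 25. CHD7, mutated in CHARGE syndrome, was at 8.68, 8.01 and 10.5 RPKM in ICM and 10.7, 13.2 and 14.0 in TE (difference of -0.44 log2 units, limma adjusted p = 0.40). On the deposited scale CHD9, like CHD7, was below TE in every ICM library (5.28 ± 0.77 against 6.95 ± 0.55 RPKM). After median of ratios rescaling this held for CHD9 but not for CHD7. CHD4, the motor of the NuRD co-repressor complex, was the most abundant of the family at 20.7 ± 6.66 against 22.3 ± 1.999 RPKM.

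The arginine methyltransferases were mixed and none passed. PRMT3, which methylates a ribosomal protein, was at 5.51, 5.42 and 5.42 RPKM in ICM, below the 8.49, 7.92 and 8.95 of TE (difference of -0.55 log2 units, SE 0.22, limma adjusted p = 0.25). It was nearly constant within ICM on the deposited scale, but not after median of ratios rescaling. PRMT1, the main enzyme of asymmetric dimethylation, was at 36.3, 29.0 and 11.1 RPKM in ICM and 15.9, 18.4 and 23.6 in TE (difference of 0.25 log2 units, limma adjusted p = 0.81). PRMT5, the main enzyme of symmetric dimethylation, ran from 4.66 RPKM in ICM 25 to 17.1 in ICM 22, with 11.8 to 18.1 in TE, and PRMT2 was at 2.23 ± 0.79 against 1.52 ± 0.59.

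Over all members tested, on the deposited scale, ICM lay above TE without overlap for 4 (CHD2, HDAC5, KDM3A and KDM5B). It lay below without overlap for 11 (CHD7, CHD9, EHMT2, HDAC10, KAT5, KDM1B, PRMT3, SETDB2, SMARCC2, TET2 and UHRF1). These are 4.88% and 13.4% of the members, where 6.81% and 17.8% of all genes tested showed the same. The lists depend on the scaling of the libraries. After median of ratios rescaling CHD7, EHMT2, HDAC10 and SMARCC2 overlapped, and EZH2, HDAC2 and SIRT5 were among members that then lay above TE. Shares of all genes were not computed on that scale. The 9 members below the filter had means of 0.26 to 1.14 RPKM in either tissue. Among them the SWI/SNF motor SMARCA2, singled out after its values were seen, had 154, 127 and 48 reads in ICM and 34, 28 and 44 in TE.

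The members spread more within ICM, with a median SD of 34.8% of the mean, than within TE, with 13.3%. Over all genes tested the medians were 36.6% and 16.1%. Library 25 was the one that stood apart. ICM 25 was the lowest of the 6 libraries for 49 of 82 members (59.8%), as it was for 50.9% of all genes tested, and the highest for 5 (9.95% of all genes), namely CHD2, EP300, HDAC5, KDM5A and KDM6B. The median log2 difference between ICM 25 and the mean of ICM 15 and 22 was -0.50 for the members and -0.41 for all genes on the deposited scale. After median of ratios rescaling, which divides ICM 25 by 0.775 and the other libraries by 1.02 to 1.14, these medians were -0.17 and -0.04. On the deposited scale the most negative values among the members were those of DNMT3B, with -3.24, SIRT1, with -1.80, and TET1, with -1.74. The members together summed to 1247 and 1244 RPKM in ICM 15 and 22, 702 in ICM 25 and 914 to 1040 in TE, and DNMT3B made up 15.1%, 14.5% and 2.66% of the sum in ICM 15, 22 and 25 and 5.21% to 8.39% in TE.

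Without ICM 25, limma called 7 of 82 members (8.54%) as higher in ICM and 0 as higher in TE, where 5.89% and 5.62% of all genes were called. The 7 were DNMT3B, TET1, EZH2, HDAC2, KDM5B, SIRT1 and SIRT5, and the highest adjusted p among them was 0.047. Weighting the libraries by their agreement left 2, EZH2 (limma adjusted p = 0.037) and SIRT1 (0.037), at a background of 3.87%. Leaving out ICM 15 turned the sign of the small differences of DNMT1, HDAC1, PRMT1, SMARCB1, TDG and TRIM28 as well. The 7 genes passed only in the fit that left ICM 25 out, so low values in ICM 25 are partly set by this choice. On the deposited scale 6 lay within or below the TE range there, and KDM5B was level with the highest TE library. After median of ratios rescaling EZH2, HDAC2, KDM5B and SIRT5 lay above every TE library in ICM 25, and DNMT3B, SIRT1 and TET1 below every one. The sums of epiblast and hypoblast markers were lowest in ICM 25 among the ICM libraries, though KLF4, GDF3 and BMP2 on those lists were not. The part of these markers in the calls was not tested.

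**Figure D3:**
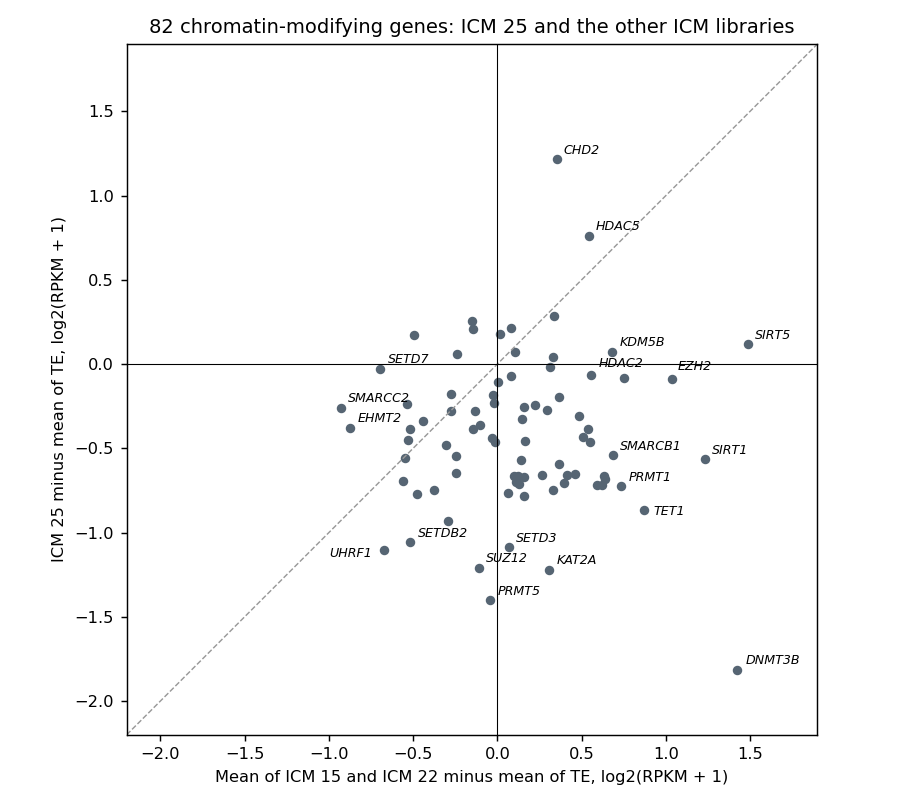
Each point is 1 of the 82 members tested. The x axis is the mean of ICM 15 and ICM 22 minus the mean of TE, the y axis ICM 25 minus the mean of TE, both on the log2(RPKM + 1) scale, and the dashed line marks equal values. Most points lie below the line, DNMT3B lowest, and CHD2 lies farthest above it.

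Ratios of related genes within a library depend on its scaling only through the added 1 RPKM, and 20 such pairs were compared (the plot of within-library ratios). In 18 of them the same gene was higher in all 6 libraries. Measured on RPKM + 1, EZH2 exceeded EZH1 by 7.41-fold to 28.2-fold, KDM1A exceeded KDM1B by 10.7-fold to 17.2-fold, SMARCA4 exceeded SMARCA2 by 5.56-fold to 15.1-fold, and EP300 exceeded its relative CREBBP by a steady 2.90-fold to 3.40-fold. DNMT3A was the lower of the de novo pair in each library, at a ratio to DNMT3B from 0.08 in ICM 22 to 0.71 in ICM 25. Levels are per length of the deposited gene models, which can be incomplete.

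Tissue was separated without overlap by 5 of these 20 ratios, where 24.6% of all single genes tested showed no overlap. A share for ratios of other genes was not computed. UHRF1, SETDB2 and KDM1B, each in 1 of the pairs below, also showed no overlap by themselves. The log2 ratio of DNMT1 to UHRF1 was 2.12 ± 0.46 in ICM and 1.28 ± 0.22 in TE, that of SETDB1 to SETDB2 1.499 ± 0.12 and 0.81 ± 0.29, that of KDM1A to KDM1B 3.96 ± 0.15 and 3.52 ± 0.12, that of PRMT1 to PRMT5 1.17 ± 0.47 and 0.42 ± 0.07, and that of HDAC1 to HDAC2 0.40 ± 0.11 and 0.82 ± 0.23 (SD, n = 3 each). Each had an exact permutation p of 0.1 (two-sided), the smallest that 3 against 3 libraries allows, and 0.40 after Benjamini-Hochberg adjustment over the 20 pairs. For EP300 to CREBBP the difference was 0.03 log2 units (exact permutation p = 0.8).

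**Figure D4:**
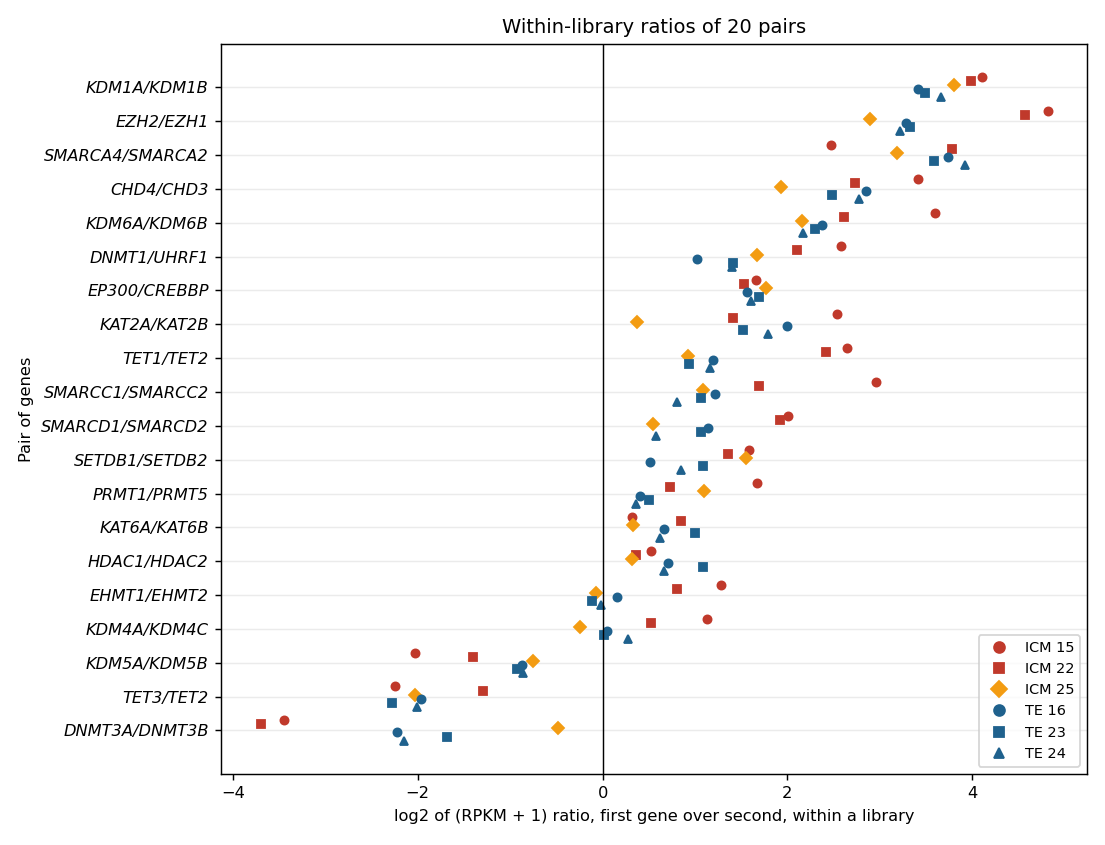
Log2 ratio of RPKM + 1 between the genes of 20 pairs, with 1 point per library. Values right of 0 mean that the gene named first is higher. The ratio of DNMT3A to DNMT3B spans the widest range, from -3.70 in ICM 22 to -0.48 in ICM 25, and that of EP300 to CREBBP stays between 1.53 and 1.77.

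Of 154 genes that work with these enzymes, such as Polycomb repressive complex 1 (PRC1), readers of methylated DNA, co-repressor subunits and the supply of the methyl donor, 133 had a row and 124 were tested. By limma 0 of 124 were called, beside the 1.87% of all genes, and 12 (9.68%) had an unadjusted p under 0.05, where 16.9% of all genes had one. Their median difference was -0.08. ASH2L, a core subunit of the lysine 4 methyltransferases, was at 18.9, 26.2 and 24.8 RPKM in ICM and 46.5, 57.6 and 44.6 in TE (difference of -1.06 log2 units, SE 0.24, limma adjusted p = 0.069). PHC1, a PRC1 subunit, was at 37.2, 37.5 and 12.6 RPKM in ICM and 7.76, 7.28 and 6.42 in TE (difference of 1.74 log2 units, SE 0.40, limma adjusted p = 0.070). It passed after median of ratios rescaling (limma adjusted p = 0.031). RING1, the ubiquitin ligase of PRC1, lay the other way at 1.71 ± 0.73 against 4.07 ± 1.08 RPKM (limma adjusted p = 0.16).

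Without ICM 25, 9 of these partner genes passed with higher levels in ICM (7.26%, against 5.89% of all genes) and 3 with higher levels in TE (2.42%, against 5.62%). The 3 were ASH2L, the methyltransferase SMYD2 and the dehydrogenase IDH1. Among the 9, named here after their values were seen, was HELLS, a remodeller that DNA methylation of repeats requires, with 28.2 and 30.6 RPKM in ICM 15 and 22, 3.67 in ICM 25 and 8.91, 7.30 and 8.35 in TE. ZFP57, which protects methylation at imprinted loci, had 6.17, 6.87 and 0.883 RPKM in ICM and 3.12, 2.22 and 3.10 in TE. Like DNMT3B, both were high in ICM 15 and 22 and lowest in ICM 25. So were AHCY, APEX1, NSD1 and TRRAP among the 9. ICM 25 was the lowest library for 53.2% of the partner genes tested and 50.9% of all genes tested.

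Several members are close neighbours in the deposited coordinates: 9 pairs lie within 1 Mb of each other. SIRT1 (56341550 to 56365132) and TET1 (56892685 to 56957330) lie 528 kb apart on chromosome 1, and both were high in ICM 15 and 22 and lowest in ICM 25. ICM 25 was the lowest library for 50.9% of all genes tested. SMARCA4 and DNMT1, 547 kb apart on chromosome 7, were lowest in ICM 15 and in ICM 25, respectively. The closest pair, KDM6B and CHD3 on chromosome 11, 30.9 kb apart, had differences of -0.27 and -0.14 and were both lowest in ICM 15. On chromosome 7, UHRF1 (3014833 to 3042315) lies 44.9 kb from KDM4B, which was at 0.63 ± 0.28 RPKM in ICM against 0.51 ± 0.07 in TE. On chromosome 16 SMARCC1 and SETD2, 432 kb apart, had differences of 0.18 and -0.22.

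The authors' deposited table, from the count-based tool DESeq, called 7 of the 91 members as higher in ICM and 2 as higher in TE at an adjusted p of 0.05, beside 10.7% and 5.93% of all rows. In the authors' deposited table those higher in ICM were CHD2, DNMT3B, EZH2, HDAC5, SIRT1, SIRT5 and SMARCA2, with log2 folds from 0.75 to 1.66, and those higher in TE were EHMT2 (-0.84) and UHRF1 (-1.18). For DNMT3B the authors' deposited table gives a log2 fold of 0.88 with an adjusted p of 0.0052, for the values in which ICM 25 lies below every TE library.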

How the data were processed

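Per the file headers, the authors deposited RPKM for 6 libraries, DESeq's mean normalized signal, a fold as a ratio, its log2 value and p-values. A residual variance score, also deposited, was not used. FastQC and DESeq are named, per the submitters' processing notes. Aligner, counter, build, annotation and strand setting were not given in the sources used here. RPKM with the mean signal gave back whole reads within 0.001 for 100% of values of up to 1000 reads, and gene lengths. Log2(RPKM + 1) of the 9436 genes that reached 1 RPKM in 3 or more libraries was fitted with limma 3.58.1 (R 4.3.3, trend, two-sided, Benjamini-Hochberg), and the fit was tested on simulated data. Every row has at least 0.4 RPKM in 2 libraries; genes below are not analysed here. Symbols are as deposited, and 89 of 91 members occur in the NCBI table of assembly TB-T2T. Named were, in each role group, the 3 members of smallest p and the most abundant, and 14 fixed genes; other genes were chosen after their values were seen. The members, lists and pairs were chosen with earlier results of these data known. The cDNA was amplified, per the labels' protocols, so reads are not independent molecules. Left-out-library fits kept the same genes. Alternatives are given in the closing section.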

Additional observations from a re-analysis of the deposited data

How the results depend on the processing

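The count of members called higher in ICM was 0 in 11 of 13 alternatives, and that of members called higher in TE 0 in 13 of 13. The first became 2 with library weights and ran from 0 to 7 when libraries were left out in turn, with 7 without ICM 25. Most fits with a library left out called few genes at all. Of all 9436 genes, those called higher in ICM were 0 without TE 16, 1 without TE 23 and 1 without TE 24. They were 10 without ICM 15, 30 without ICM 22 and 556 without ICM 25. Where so few genes were called, a count of 0 members says little about the members. Calls among the partner genes became 1 with median of ratios rescaling, 1 with quantile normalization, 7 with library weights and 1 with voom on the recovered reads, and ran from 0 to 12 on leaving out libraries, with 12 without ICM 25. The members' median difference ran from -0.18 without ICM 22 to 0.12 without ICM 25. Over 42 named members, 25 of 532 alternative values had the other sign, none of them called, and 30 members kept their sign throughout. No paired analysis was possible because no replicate number occurs in both tissues. With 3 libraries a tissue, a miss of the threshold does not show equality, and UHRF1, SIRT5, EZH1 and SMARCA2 rest on few reads.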

Other observations

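Among the members, 4 lie on the X chromosome, and the libraries differ in XIST, the RNA that coats the inactive X, which was looked at after its values were seen. XIST was at 0.698, 71.0 and 69.6 RPKM in ICM 15, 22 and 25 and at 53.7, 0.0302 and 0.355 in TE 16, 23 and 24, so high and low libraries occur in both tissues. KDM6A, a lysine 27 demethylase, was at 21.5, 22.4 and 17.8 RPKM in ICM and 16.8, 17.8 and 17.2 in TE. KDM5C, a lysine 4 demethylase, was at 5.26, 5.88 and 4.20 RPKM in ICM and 4.74, 4.13 and 3.99 in TE. The deacetylases HDAC6 and HDAC8 were at 0.557 to 1.65 and 0.510 to 1.95 RPKM over the 6 libraries.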
